A study of Mus musculus with 11 samples.

Results

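The genes described here are 10 that code for inhibitory checkpoint receptors of T cells or for their ligands: Pdcd1, Lag3, Havcr2, Tigit, Ctla4, Vsir, Cd200, Cd101, Cd274 and Cd160. They were chosen by name, all 10 were found among the 25562 gene symbols of the expression table, and all 10 passed the filter of a mean of at least 1 TPM in each comparison. TPM expresses a gene's share of the transcripts in a library, corrected for transcript length. RNA had been measured in 11 libraries of CD8+ T cells isolated from the spleens of C57BL/6 mice. Every group had a pretreatment of 22 h and a later stimulation of 24 h, in which anti-CD3 was used at 1 µg/mL and anti-CD28 at 0.5 µg/mL, so the series holds no resting cells. The 4 AOAH libraries carry the label of an ethanol control followed by AOAH-His, which is recombinant human acyloxyacyl hydrolase, a lipase, at 10 µg/mL. The 3 PC libraries came from cells given 60 µM PC16:0-20:4, a phosphatidylcholine that carries palmitic and arachidonic acid, and then the buffer of the protein, which held 10% glycerol. Ethanol followed by that buffer had been given to the cells of the 4 vehicle libraries. Medium is described both with and without interleukin-2, and the labels do not agree on the step in which AOAH was present or on plates against beads for the activating antibody. They name the vehicle as a protein buffer control but do not give a glycerol content for the AOAH libraries. Whether glycerol was matched between AOAH and vehicle is therefore not known, and its part in the results was not tested.

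Inhibitory checkpoint receptors are surface proteins that T cells put up after activation and that dampen the signals of the T cell receptor and of CD28. PD-1 (Pdcd1), TIGIT and CTLA-4 are immunoglobulin family receptors, and their ligands sit on antigen-presenting cells, on tumour cells and on T cells themselves. PD-L1 (Cd274) is the main ligand of PD-1, and VISTA (Vsir) is known both as a ligand and as a receptor that keeps naive T cells quiescent. A gene of this group that is high after 1 day of stimulation is a mark of activation as much as of restraint, since most of them are switched on by the receptor signal itself.

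The promoter windows of 4 genes are shown because these genes carry the main contrasts below: Pdcd1 and Tigit, 2 receptors that were higher with AOAH, and Vsir and Cd274, which stood lower with AOAH and higher with PC. Each window runs from 250 bases before to 50 bases after the start of the gene in RefSeq (GRCm38.p6), and capitals mark matches to the NFAT core GGAAA on either strand, the short sequence bound by the calcium-driven factor NFAT. The windows lie at chr1:94052504-94052803, minus strand, at chr16:43664135-43664434, minus strand, at chr10:60346601-60346900, plus strand, and at chr19:29367188-29367487, plus strand.
Pdcd1: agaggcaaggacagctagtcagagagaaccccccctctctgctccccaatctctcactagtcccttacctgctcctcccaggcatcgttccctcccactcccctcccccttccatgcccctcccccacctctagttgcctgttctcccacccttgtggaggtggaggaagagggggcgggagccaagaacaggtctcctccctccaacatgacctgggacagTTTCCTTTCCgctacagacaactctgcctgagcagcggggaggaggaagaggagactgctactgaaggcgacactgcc
Tigit: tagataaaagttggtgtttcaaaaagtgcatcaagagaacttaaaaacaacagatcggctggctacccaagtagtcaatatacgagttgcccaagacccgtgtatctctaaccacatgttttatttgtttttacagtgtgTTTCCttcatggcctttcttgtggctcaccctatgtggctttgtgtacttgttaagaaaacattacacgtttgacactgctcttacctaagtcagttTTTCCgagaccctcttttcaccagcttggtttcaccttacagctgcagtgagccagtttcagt
Vsir: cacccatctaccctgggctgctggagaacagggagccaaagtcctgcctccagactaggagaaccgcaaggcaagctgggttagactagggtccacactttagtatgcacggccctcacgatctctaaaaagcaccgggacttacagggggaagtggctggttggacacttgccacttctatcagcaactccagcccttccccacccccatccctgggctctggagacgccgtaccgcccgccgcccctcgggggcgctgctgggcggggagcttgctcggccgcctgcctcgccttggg
Cd274: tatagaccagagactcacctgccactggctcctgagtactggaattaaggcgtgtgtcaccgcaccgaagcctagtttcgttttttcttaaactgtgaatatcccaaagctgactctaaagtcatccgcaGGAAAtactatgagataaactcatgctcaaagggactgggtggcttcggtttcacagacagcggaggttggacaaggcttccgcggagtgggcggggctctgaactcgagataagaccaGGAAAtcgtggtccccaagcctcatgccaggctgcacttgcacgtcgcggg
The NFAT core was found 2 times each in the Pdcd1, Tigit and Cd274 windows and 0 times in the Vsir window. Of the 32851 windows in the RefSeq table, 61.3% hold it, so its presence is common. Both strands were also searched for the AP-1 motif TGANTCA (7.8% of all windows), the interferon-stimulated response element (3.4%), whose letters can overlap the NFAT core, and the gamma-activated site TTCNNNGAA (8.3%). None of these 3 motifs occurred in the 4 windows printed. The table held 10 windows of 9 of these genes, 2 of them of Cd160 and none of Lag3. The NFAT core had a match in 6 of these 10, close to its share of all windows. It had none in the windows of Vsir, Cd200 and Havcr2 and in 1 of Cd160. Across these 10, AP-1 had a match in 1, that of Havcr2, and the gamma-activated site in 1, a window of Cd160. A match is a stretch of letters and not a site shown to be bound, and no match says only that these letters are not in the window.

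With AOAH, Cd200 (128 TPM), Pdcd1 (76.2), Cd160 (72.0) and Tigit (48.1) led by mean level, and Vsir had the sixth place at 40.2 TPM, with a range that overlapped that of Lag3. With PC, Vsir (88.6 TPM) stood next after Cd200 (104) and ahead of Pdcd1 (76.0), and the ranges of Lag3 and Tigit overlapped. In vehicle libraries the order ran from Cd200 (82.4 TPM) through Cd160 (56.2), Pdcd1 (55.0), Vsir (50.9), Tigit (36.3), Cd274 (33.7), Lag3 (26.1), Ctla4 (10.0) and Cd101 (2.64) down to Havcr2 (1.62). There the ranges of Cd160, Pdcd1 and Vsir overlapped from one to the next, as did those of Tigit and Cd274, so those neighbours cannot be ordered beyond the spread of the libraries. Havcr2, which codes for TIM-3, and Cd101 were close to the filter in every group. The sum of the 10 genes was 444 ± 13.5 TPM in AOAH libraries (n = 4), 473 ± 4.82 TPM in PC libraries (n = 3) and 355 ± 19.3 TPM in vehicle libraries (n = 4), each with its SD.

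**Figure D1:**
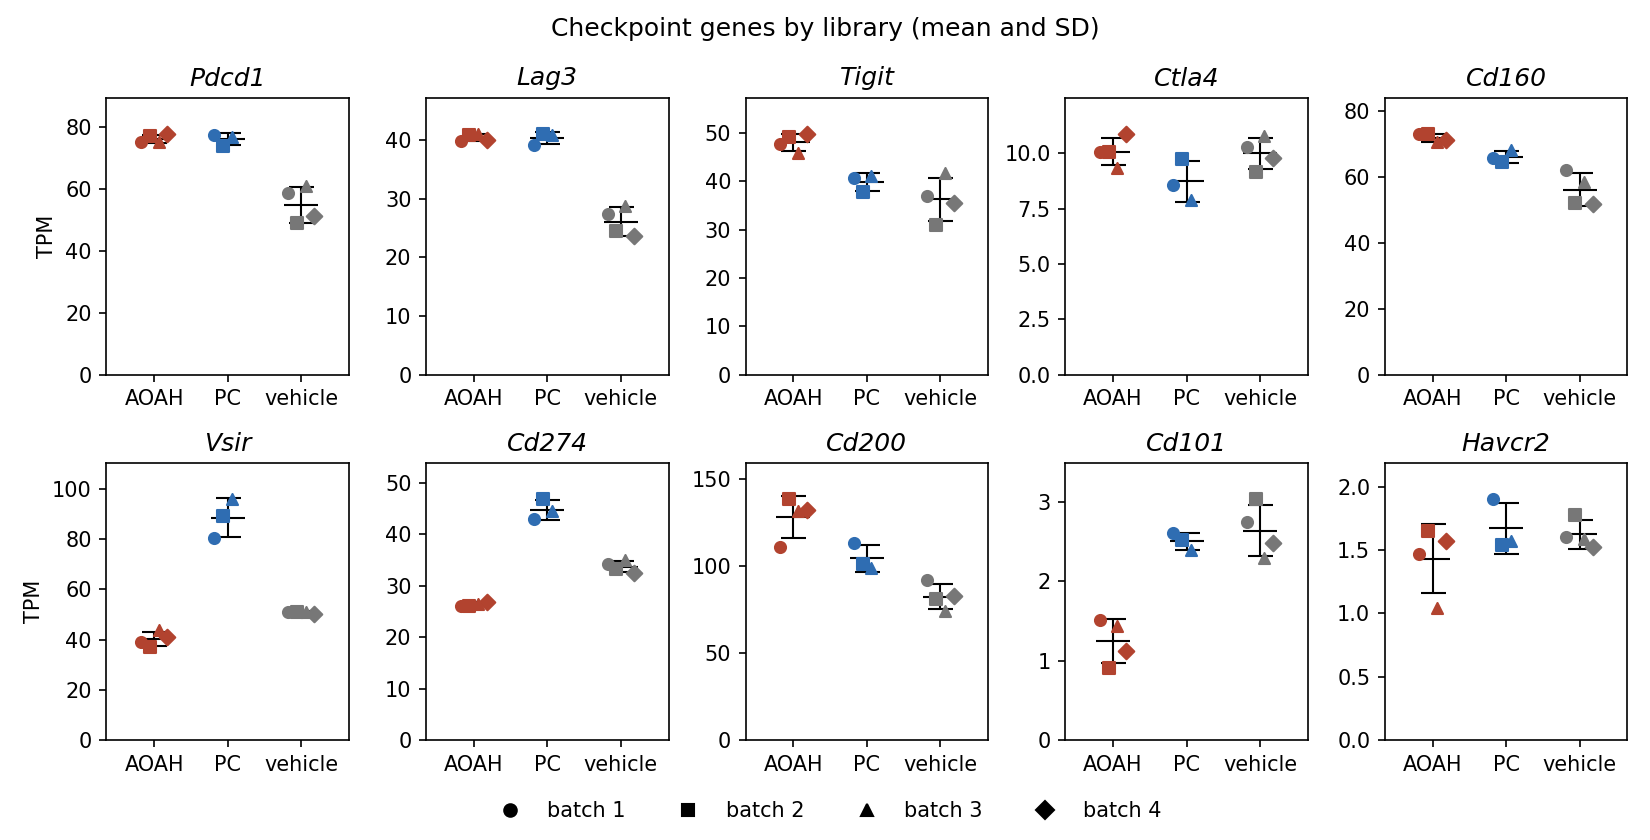
TPM of each checkpoint gene in every library by group, with symbols for the batch, a bar for the group mean and whiskers for the SD (n = 4 AOAH, 3 PC and 4 vehicle). Pdcd1 and Lag3 sit above vehicle in AOAH and PC libraries alike, while Vsir and Cd274 sit below vehicle with AOAH and above it with PC.

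Each library had from 11423 to 11739 genes that reached 1 TPM, and no pair of libraries held identical values. The 10 CD8 T cell identity genes (such as Cd3e and Cd8a) summed to 2701 to 2757 TPM with AOAH, 3354 to 3475 TPM with PC and 2963 to 3007 TPM with vehicle. With AOAH 7 of these 10 fell and 1 rose (12.1% and 13.1% of all genes tested), and with PC all 10 rose (8.27% of all genes), so the lineage genes themselves moved with the treatments, and the part of this in the results below was not tested beyond the division by their sum. The 6 markers of CD4 and regulatory T cells summed to 4.84 to 8.46 TPM with AOAH, 7.87 to 11.2 TPM with PC and 5.77 to 7.50 TPM with vehicle. Among them Cd4 reached 0.42 TPM, Foxp3 1.04 TPM and Zbtb7b 6.10 TPM, and Cd40lg, which activated T cells also express, was called higher with PC (0.65, adjusted p = 0.0238). The 10 myeloid markers summed to 5.82 to 7.92 TPM with AOAH, 8.66 to 9.82 TPM with PC and 7.07 to 11.7 TPM with vehicle. Csf1r, Cd14, Adgre1 and Flt3 stayed at or under 0.1 TPM, and Itgam at or under 0.15 TPM. Cd68 reached 6.19 TPM, Fcer1g 3.23 TPM and Lyz2 2.55 TPM. Tyrobp reached 1.43 TPM and Itgax 1.04 TPM. The 8 B cell markers summed to 134 to 142 TPM with AOAH, 172 to 177 TPM with PC and 156 to 161 TPM with vehicle, and most of each sum was Ighm. Cd79b was at 5.42 to 9.20 TPM and was not called with AOAH (-0.10, adjusted p = 0.473) or PC (-0.33, adjusted p = 0.0966) against vehicle. Within this list Ighm (-0.18, adjusted p = 0.00261) and the MHC class II genes H2-Aa (-0.60, adjusted p = 0.0140) and H2-Ab1 (-0.66, adjusted p = 0.0124) fell with AOAH, and Ighm rose with PC (0.18, adjusted p = 0.00770). H2-Aa averaged 1.26 TPM with AOAH, 1.76 TPM with PC and 2.45 TPM in vehicle libraries, and H2-Ab1 averaged 1.18, 2.14 and 2.39 TPM in the same groups. Their part in the changes of the checkpoint genes was not tested. The 8 markers of NK and innate-like T cells, which include Nkg7, summed to 645 to 668 TPM with AOAH, 637 to 646 TPM with PC and 611 to 658 TPM with vehicle. Most of each sum was Nkg7, and Ncr1 reached 0.24 TPM. Of the 4 tested, 1 rose and 2 fell with AOAH (all genes: 13.1% and 12.1%). With PC none rose and 1 fell (all genes: 8.27% and 11.2%). Eomes fell with AOAH (-0.22, adjusted p = 0.00127) and PC (-0.29, adjusted p = 0.00308). Trdc fell (-0.35, adjusted p = 0.0422) and Nkg7 rose (0.09, adjusted p = 0.0317) with AOAH. Klrk1 was at 16.5 to 30.4 TPM and was not called against vehicle. In bulk RNA, fewer cells that express a gene and less of its RNA per cell cannot be told apart. The labels do not tie the libraries to separate mice or cultures, and every p-value therefore rests on a spread from library to library that could be technical.

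The comparison of AOAH with vehicle asked how exposure to the enzyme preparation changed activated cells. Lag3, Cd200, Pdcd1, Tigit and Cd160 rose, and Cd101, Cd274 and Vsir fell. Ctla4 and Havcr2 did not pass. Thus 8 of 10 were called at an adjusted p under 0.05 by limma, where 25.2% of the 11561 genes tested were called (13.1% higher and 12.1% lower). In the same 8 genes AOAH and vehicle did not overlap, which held for 28.8% of all genes. The median log2 change of the 10 genes was 0.18, beside 0.01 over all genes tested.

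Pdcd1 stood at 75.0, 77.0, 75.1 and 77.7 TPM in AOAH libraries 1 to 4, at 77.6, 73.9 and 76.6 TPM in PC libraries 1 to 3, and at 58.8, 48.9, 60.9 and 51.1 TPM in vehicle libraries 1 to 4. All treated libraries lay above all vehicle libraries, and the vehicle libraries were the more scattered. The log2 change with AOAH was 0.47 ± 0.07 (SE, adjusted p = 0.00127), and within the 4 batches the difference ranged from 0.30 to 0.64. Lag3, whose product binds MHC class II and blunts T cell expansion, had 39.9, 40.9, 41.0 and 40.0 TPM with AOAH, 39.1, 41.0 and 40.9 TPM with PC, and 27.4, 24.5, 28.9 and 23.7 TPM with vehicle. It followed Pdcd1 closely, with no overlap between treated and vehicle libraries. Its log2 change with AOAH was 0.62 ± 0.06 (adjusted p = 1.90e-04), higher than that of 96.0% of all genes tested in size.

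Tigit, a receptor that competes with the costimulatory receptor CD226 for shared ligands, stood at 47.6, 49.2, 45.9 and 49.8 TPM with AOAH, 40.8, 37.7 and 41.2 TPM with PC, and 37.0, 30.9, 41.6 and 35.5 TPM with vehicle. The AOAH libraries lay above all others, whereas PC and vehicle overlapped. Its log2 change with AOAH was 0.41 ± 0.08 (adjusted p = 0.00582), with 0.14 to 0.65 within batches. Cd160, a receptor for HVEM found on cytotoxic cells, had 73.0, 73.1, 70.6 and 71.4 TPM with AOAH, 65.9, 64.6 and 68.2 TPM with PC, and 62.1, 52.2, 58.6 and 51.9 TPM with vehicle. The 3 groups formed 3 separate bands, AOAH above PC and PC above vehicle. The log2 change with AOAH was 0.36 ± 0.06 (adjusted p = 0.00247).

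Cd200 codes for a surface ligand that calms myeloid cells through CD200R1. It stood at 111, 138, 131 and 132 TPM with AOAH, 113, 101 and 98.7 TPM with PC, and 91.7, 81.1, 73.8 and 82.9 TPM with vehicle. AOAH library 1 was the lowest of its group and lay below PC library 1, so AOAH and PC overlapped. The log2 change with AOAH was 0.63 ± 0.08 (adjusted p = 7.87e-04), and the difference within batches ranged from 0.27 in batch 1 to 0.82 in batch 3. The mRNA of its receptor, Cd200r1, was at 0.18 to 0.33 TPM with AOAH, 0.17 to 0.36 TPM with PC and 0.21 to 0.44 TPM with vehicle, below the filter.

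Vsir, Cd274 and Cd101 went the other way with AOAH. Vsir had 39.2, 37.2, 43.6 and 40.9 TPM with AOAH, 80.5, 89.3 and 96.0 TPM with PC, and 51.2, 51.1, 50.9 and 50.3 TPM with vehicle. The vehicle libraries were almost level and the treated groups lay on opposite sides of them. The log2 change with AOAH was -0.33 ± 0.05 (adjusted p = 0.00131), with -0.45 to -0.22 within batches. Cd274 stood at 26.1, 26.0, 26.5 and 26.9 TPM with AOAH, 43.0, 46.8 and 44.5 TPM with PC, and 34.2, 33.2, 34.9 and 32.6 TPM with vehicle. No library of one group entered the range of another, and the log2 change with AOAH was -0.34 ± 0.04 (adjusted p = 3.00e-04). Cd101, an inhibitory surface protein, had 1.51, 0.91, 1.44 and 1.12 TPM with AOAH, 2.6, 2.52 and 2.39 TPM with PC, and 2.74, 3.03, 2.29 and 2.48 TPM with vehicle. It was the lowest in AOAH libraries, at 0.472 times the vehicle mean, while PC and vehicle overlapped. Its change on the log2(TPM + 1) scale was -0.70 ± 0.12 (adjusted p = 0.00306), a scale that understates changes at so low a level.

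Ctla4, which codes for the CD28 competitor CTLA-4, had 10.0, 10.0, 9.34 and 10.9 TPM with AOAH, 8.58, 9.73 and 7.88 TPM with PC, and 10.3, 9.16, 10.8 and 9.78 TPM with vehicle. The groups overlapped, and the log2 difference of AOAH from vehicle was 0.01, with a 95% interval from -0.14 to 0.16. Havcr2 ranged from 1.04 to 1.65 TPM with AOAH, 1.54 to 1.90 TPM with PC and 1.52 to 1.78 TPM with vehicle. Its log2 difference with AOAH was -0.11, with an interval from -0.36 to 0.13. Havcr2 rests on few reads, with a base mean of 73.6 normalized counts in the authors' deposited table for AOAH, against 2097 for Pdcd1 there.

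The comparison of PC with vehicle libraries 1 to 3 asked what loading with the lipid before activation changed in the activated cells. Vsir, Lag3, Pdcd1, Cd274 and Cd200 rose and none of the 10 genes was called lower. These 5 of 10 stand beside 19.5% of 11628 genes called in either direction (8.27% higher and 11.2% lower). The median log2 change was 0.27 over the 10 genes, beside -0.01 over all genes. Vehicle libraries 1 to 3 entered the comparison with AOAH as well, so the results against vehicle are not independent of each other.

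Vsir averaged 88.6 ± 7.75 TPM in PC libraries and 51.1 ± 0.163 TPM in vehicle libraries (SD, n = 3 each). The log2 change was 0.78 ± 0.06 (SE, adjusted p = 8.62e-04), and it ranged from 0.64 to 0.90 within batches. In size it exceeded 97.4% of all genes tested. Cd274 averaged 44.8 ± 1.93 TPM with PC and 34.1 ± 0.859 TPM with vehicle, a log2 change of 0.38 ± 0.05 (adjusted p = 0.00272). Over 16 alternatives the change ranged from 0.18 to 0.41 for Cd274 and from 0.58 to 0.85 for Vsir, and it was called in each. Both genes thus moved in opposite directions under AOAH and PC, each against vehicle.

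Lag3 changed by 0.57 ± 0.07 on the log2 scale (adjusted p = 0.00218) and Pdcd1 by 0.43 ± 0.08 (adjusted p = 0.0122) with PC. Pdcd1 averaged 76.0 ± 1.92 TPM in PC libraries and 56.2 ± 6.41 TPM in vehicle libraries 1 to 3, and its difference within batches ran from 0.33 to 0.58. Cd200 averaged 104 ± 7.58 TPM with PC and 82.2 ± 9.01 TPM with vehicle, a log2 change of 0.34 ± 0.09 (adjusted p = 0.0343). The Cd200 call was lost without PC 1 (adjusted p = 0.0944), PC 2 (0.0793), PC 3 (0.0610), vehicle 2 (0.0832) or vehicle 3 (0.0818), and with no filter (0.0971), although the direction was kept in each. When TPM was divided by the summed CD8 identity markers, which moved the median of all genes by -0.20, neither Pdcd1 (0.23, adjusted p = 0.0561) nor Cd200 (0.14, adjusted p = 0.256) was called higher.

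Cd160 averaged 66.2 ± 1.81 TPM with PC and 57.6 ± 5.04 TPM with vehicle. PC and vehicle did not overlap there, nor in the 5 called genes, as in 39.2% of all genes tested, but the log2 difference of 0.20 did not pass (adjusted p = 0.0755, 95% interval 0.05 to 0.36). It passed under 3 of 16 alternatives, with vehicle 4 included (adjusted p = 0.0384), with 1 fit over all 11 libraries (0.0115) and with quantile scaling (0.0499), and the adjusted p over all 16 ranged from 0.0115 to 0.991. Tigit differed by 0.13 (-0.11 to 0.38), Ctla4 by -0.19 (-0.41 to 0.04), Cd101 by -0.07 (-0.33 to 0.19) and Havcr2 by 0.01 (-0.26 to 0.27), and each of these 4 overlapped between PC and vehicle. An interval this wide does not show that a gene stayed level.

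**Figure D2:**
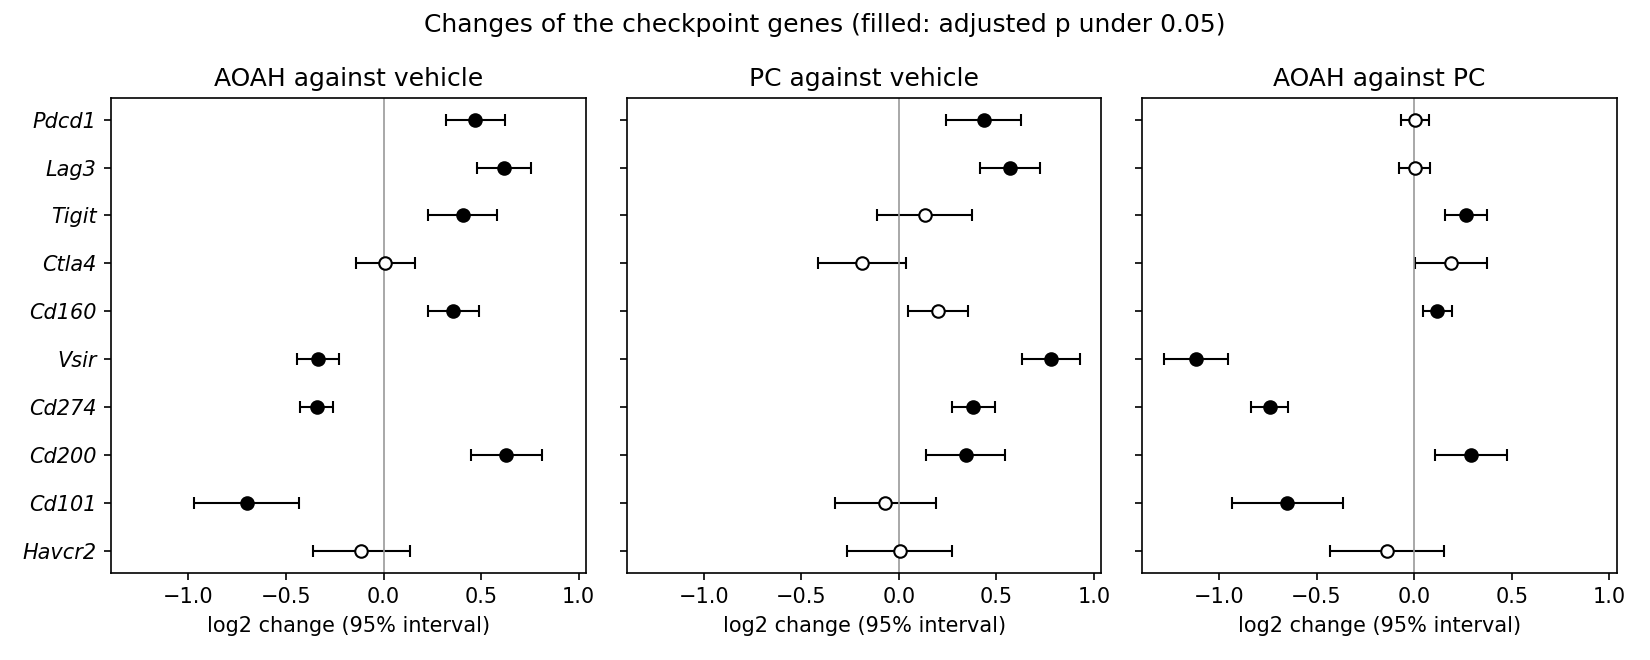
Log2 changes of the 10 checkpoint genes with 95% intervals from limma in the 3 comparisons, filled where the adjusted p is under 0.05. Pdcd1 and Lag3 are near 0 between AOAH and PC, and Vsir, Cd274 and Cd101 lie far to the left there.

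AOAH and PC were then compared directly, without the vehicle libraries. Vsir, Cd274 and Cd101 were lower with AOAH than with PC, and Cd200, Tigit and Cd160 were higher. That makes 6 of 10 called, where 45.8% of 11596 genes were called (24.3% higher and 21.5% lower). AOAH and PC did not overlap in 5 of the 10 genes, close to the 50.7% of all genes. The called gene whose groups overlapped was Cd200. The log2 change was -1.12 ± 0.07 for Vsir (adjusted p = 1.40e-05) and -0.74 ± 0.04 for Cd274 (adjusted p = 7.58e-06). Both were lower in AOAH in 3 of 3 batches, which follows from groups that do not overlap. Cd101 changed by -0.65 ± 0.12 (adjusted p = 0.00340) and Tigit by 0.27 ± 0.05 (adjusted p = 0.00221). Cd200 (0.29, adjusted p = 0.0179) and Cd160 (0.12, adjusted p = 0.0158) lost their calls when the fit held a term for batch (adjusted p = 0.105 for Cd200 and 0.0735 for Cd160) and without PC 2 (0.0629 and 0.0605), and Cd200 also without PC 3 (0.0658). Cd200 was higher with AOAH in 2 of 3 batches.

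Pdcd1 and Lag3 did not separate AOAH from PC. The log2 difference of Pdcd1 was 0.00 with an interval from -0.07 to 0.07, and that of Lag3 was 0.00 with an interval from -0.08 to 0.08. Both intervals are narrow beside the changes against vehicle. Divided by the summed CD8 identity markers, a scale on which the median of all genes moved to 0.30, both were called higher with AOAH, Pdcd1 by 0.33 and Lag3 by 0.32. Ctla4 was at 0.19 (interval 0.00 to 0.37, adjusted p = 0.0909) and Havcr2 at -0.14 (-0.43 to 0.15). Ctla4 passed under 3 of 16 alternatives, and its adjusted p over all 16 ranged from 7.92e-04 to 0.280.

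The 10 genes fell into different patterns across the 11 libraries, described here with Pearson's r of log2(TPM + 1), where the points share groups and normalization. Lag3 was the gene most like Pdcd1 among the 9008 genes compared (r = 0.98), followed by M6pr and Gramd1b (both 0.97). For Lag3 the most alike after Pdcd1 were Cd5 and Itm2a (0.97). Vsir was most like B4galnt1, Aup1 and Adgre5 (all 0.99), and Cd274 most like Il17ra, Atp1b3 and the lineage gene Cd8a (all 0.99). Cd200 went with Tusc3, Pou2af1 (both 0.95) and Coq10b (0.94). Among the 10 genes themselves, the highest correlations were Pdcd1 with Lag3 (0.98), Vsir with Cd274 (0.97) and Pdcd1 with Cd160 (0.94). The lowest was Tigit with Cd101 (-0.90).

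Ratios within a library set AOAH apart, but not PC from vehicle. There were 0.483 to 0.581 Vsir transcripts per Pdcd1 transcript with AOAH, 1.04 to 1.25 with PC and 0.835 to 1.05 with vehicle. For Cd274 per Pdcd1 the ranges were 0.338 to 0.354 with AOAH, 0.554 to 0.634 with PC and 0.574 to 0.679 with vehicle. The AOAH libraries were the lowest in both ratios, and PC and vehicle overlapped in both. No ratio was taken for Pdcd1lg2, which codes for another ligand of PD-1, so this does not hold for ligands of PD-1 in general.

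**Figure D3:**
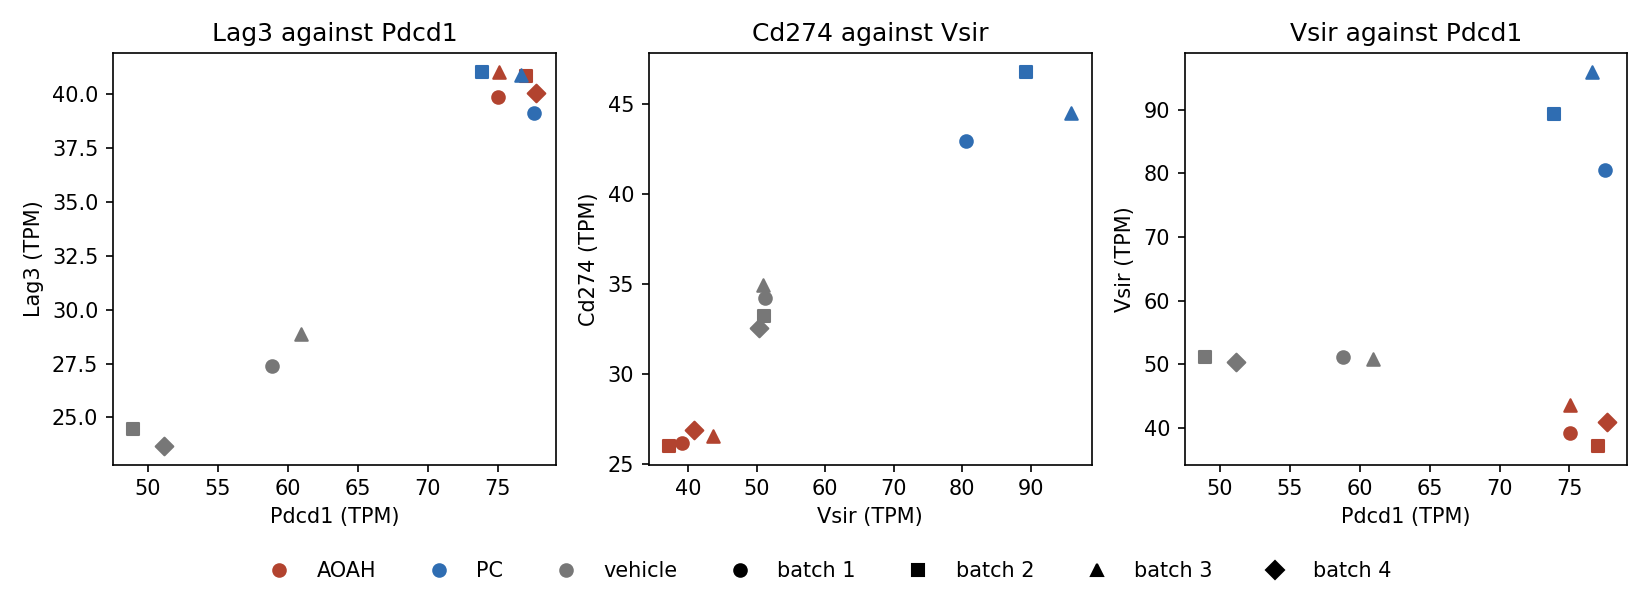
TPM of pairs of checkpoint genes in each of the 11 libraries, coloured by group with symbols for the batch, on axes that do not start at 0. AOAH and PC libraries share 1 cluster for Pdcd1 and Lag3, but lie at opposite ends for Vsir and Cd274.

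The ligands, partners and competing costimulatory receptors of these genes were read from the same fits. Of 20 listed, 13 passed the filter. With AOAH 3 rose and 5 fell, where 13.1% of all genes tested rose and 12.1% fell, and with PC 2 rose and 5 fell, where 8.27% rose and 11.2% fell. Pdcd1lg2, which codes for PD-L2, the other ligand of PD-1, averaged 22.8 TPM with AOAH, 17.4 TPM with PC and 17.9 TPM in the 4 vehicle libraries. It rose with AOAH (0.34, adjusted p = 0.00772), the reverse of Cd274, and did not pass with PC (-0.05, adjusted p = 0.740). Selplg codes for PSGL-1, a partner of VISTA, and moved as Vsir did, down with AOAH (-0.29, adjusted p = 9.40e-04) and up with PC (0.14, adjusted p = 0.0284).

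Around CD160, Tnfrsf14, which codes for its ligand HVEM, fell with AOAH (-0.52, adjusted p = 0.00391) and rose with PC (0.38, adjusted p = 0.0436). Btla, another receptor of HVEM, rose with AOAH (0.26, adjusted p = 0.0201) and was at 0.04 with PC (adjusted p = 0.742). Around TIGIT, the costimulatory Cd226 fell with PC (-0.29, adjusted p = 0.0208) and was at 0.06 with AOAH (adjusted p = 0.650). Cd96, a further receptor of this set, fell with AOAH (-0.41, adjusted p = 2.20e-04) and was at -0.09 with PC (adjusted p = 0.187). The shared ligand Pvr was not called with AOAH or PC (0.12 and 0.08), and Nectin2 and Nectin3 were below the filter.

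Around CTLA-4, Cd28 fell with PC (-0.23, adjusted p = 0.0130), as did Icos (-0.33, adjusted p = 0.00957). With AOAH these stood at 0.01 and 0.00. Cd86, a ligand of CD28 and CTLA-4, fell with AOAH from a low level (1.66 TPM with AOAH and 2.48 TPM with vehicle, adjusted p = 0.0169). Among the ligands ascribed to TIM-3, Lgals9 fell with both treatments (-0.15, adjusted p = 0.0115, and -0.18, adjusted p = 0.0381), while Hmgb1, a chromatin protein that is also released, rose with AOAH (0.21, adjusted p = 0.00907) and fell with PC (-0.42, adjusted p = 0.00206). Lgals3, a ligand ascribed to LAG-3, had wide errors and was not called against vehicle (-0.81, adjusted p = 0.123, and 0.85, adjusted p = 0.0702). The LAG-3 ligand gene Fgl1 was at 0.01 TPM at most.

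**Figure D4:**
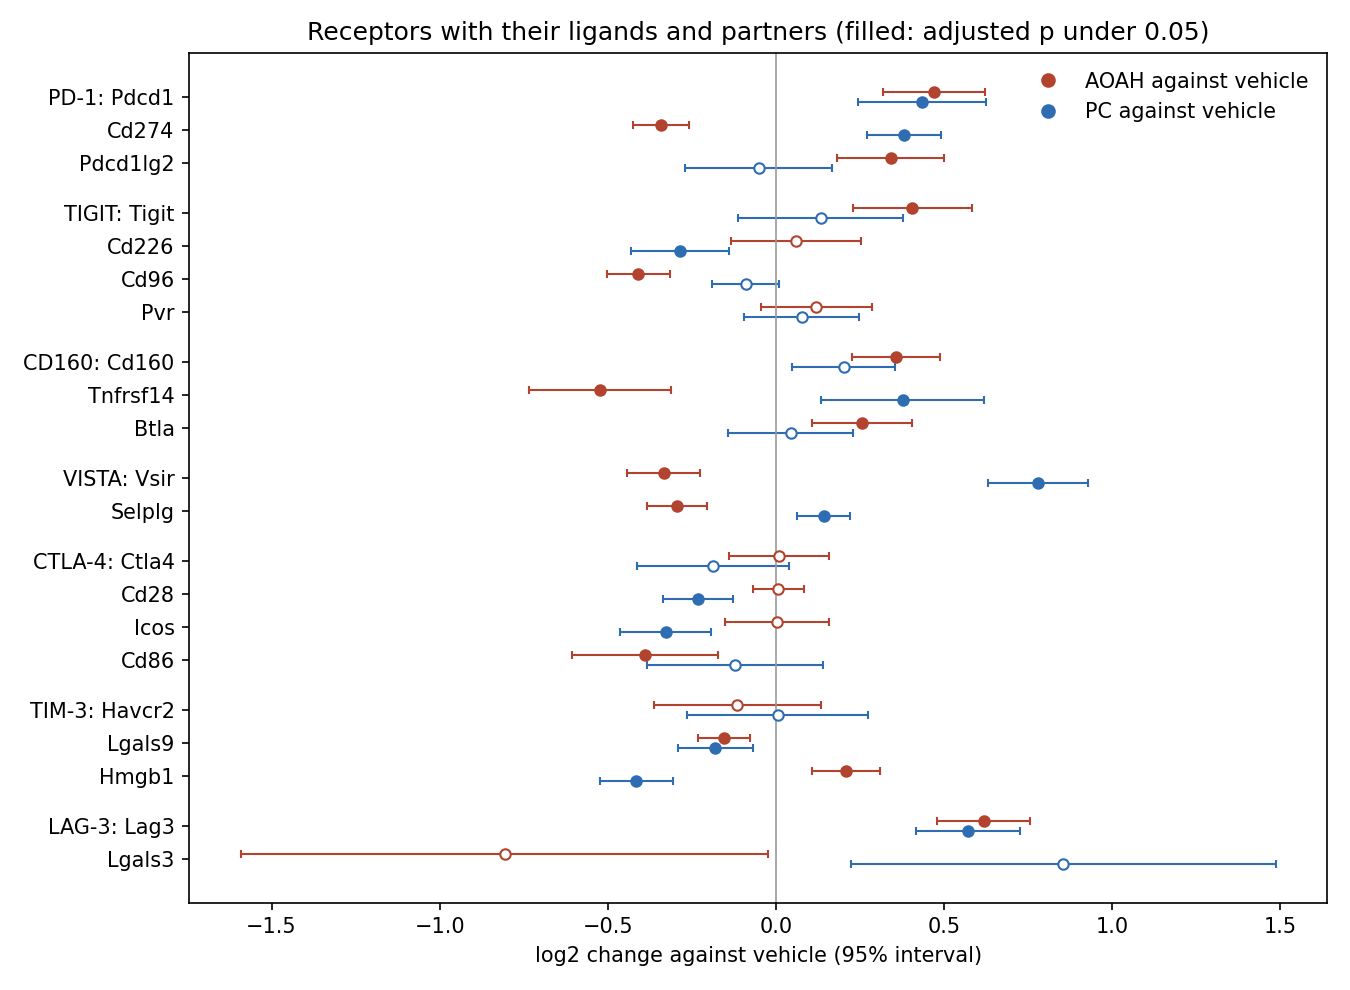
Log2 changes against vehicle with 95% intervals for receptors and the ligands and partners that passed the filter, for AOAH (4 libraries each) and PC (3 each), filled where the adjusted p is under 0.05. Cd274, Tnfrsf14, Vsir and Selplg lie left of 0 with AOAH and right of 0 with PC.

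Other inhibitory receptors and ectoenzymes of T cells were also examined. Of 15 tested, 2 rose and 4 fell with AOAH (all genes: 13.1% and 12.1%), and 6 rose and 1 fell with PC (all genes: 8.27% and 11.2%), so the rises with AOAH and the falls with PC were no more than the background. Cd5, which tunes T cell receptor signals, rose with both (0.32, adjusted p = 8.49e-04, and 0.26, adjusted p = 0.00287). Tgfbr2, the TGF-beta receptor chain, fell with AOAH (-0.50, adjusted p = 6.20e-05) and rose with PC (0.39, adjusted p = 0.00219). Nt5e, which codes for the adenosine-producing CD73, fell with AOAH (-0.65, adjusted p = 1.55e-04) and rose with PC (0.35, adjusted p = 0.0173). Klrc1, which codes for the receptor NKG2A, rose with PC to a mean of 27.8 TPM, against 17.2 TPM in vehicle libraries 1 to 3 (0.67, adjusted p = 0.00109). Il10ra, the interleukin-10 receptor chain, fell with AOAH (-0.30, adjusted p = 0.00435) and with PC (-0.40, adjusted p = 0.00294).

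Of 21 genes of inhibitory signalling tested, 1 rose and 2 fell with AOAH, a share below the 25.2% called over all genes. With PC 6 rose and none fell, beside 8.27% and 11.2% of all genes. Ptpn6, which codes for the phosphatase SHP-1, rose with both treatments (0.24, adjusted p = 4.16e-04, and 0.24, adjusted p = 0.00374). Dgka, a lipid kinase that limits diacylglycerol signals, fell with AOAH (-0.55, adjusted p = 1.91e-05) and rose with PC (0.35, adjusted p = 0.00145). Ptpn22, another phosphatase, rose with PC (0.35, adjusted p = 0.00186), and Trat1, an adaptor that stabilizes surface receptors, did so too (0.54, adjusted p = 0.0102). Ptpn11, which codes for SHP-2, the phosphatase recruited by PD-1, was not called against vehicle (0.09 with AOAH and -0.11 with PC).

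Transcription factors known to act on checkpoint genes moved both ways. Of 27 tested, 8 rose and 7 fell with AOAH, beside 25.2% of all genes called, and 8 rose and 6 fell with PC, beside 19.5%. Among those called with AOAH were Tcf7 (-0.44, adjusted p = 1.91e-05), Irf1 (-0.48, adjusted p = 3.00e-05) and Irf8 (0.30, adjusted p = 6.40e-04). Among those called with PC were Tcf7 (0.31, adjusted p = 0.00168), Id3 (0.47, adjusted p = 0.00210) and Bhlhe40 (0.47, adjusted p = 0.00258). Of the NFAT factors listed, Nfatc1 rose with AOAH (0.20, adjusted p = 0.0151) and PC (0.30, adjusted p = 0.00295). Nfatc2 was not called with AOAH (-0.07, adjusted p = 0.570) or PC (-0.19, adjusted p = 0.149). The part of either in the changes of the checkpoint genes was not tested. Tox, a factor of exhausted T cells, was at 6.00 TPM with AOAH, 5.85 TPM with PC and 5.57 TPM in vehicle libraries, and it was not called in any of the 3 comparisons. Tbx21, which codes for T-bet, separated the treatments, higher with AOAH than with PC by 0.60 on the log2 scale (adjusted p = 6.60e-05).

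Cd274 is known as a gene that interferons induce, and 20 interferon-stimulated genes were read beside it. With AOAH 15 of the 18 tested fell and none rose, where 12.1% of all genes fell, among them Ifit3 (-1.40), Irf1 (-0.48) and Igtp (-0.44), and their median log2 change was -0.49. With PC 4 rose and 4 fell, where 8.27% of all genes rose and 11.2% fell, and the median change of the list was -0.05. Irf1 was at -0.05 with PC (adjusted p = 0.314), Gbp2 (-0.29) and Ifi47 (-0.23) fell, and Irf9 (0.40) rose. Cd274 was thus lower along with this list under AOAH and higher with PC, where the list was split. Its part in the change of Cd274 was not tested.

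Genes that overlap in the genome can share reads where strand is not used, and the use of strand is not given in the sources used here. In GENCODE vM21, Vsir overlaps Cdh23 on the opposite strand, Cd160 overlaps Pdzk1 and Cd274 overlaps the antisense transcript AC119228.1. Cdh23 was at 11.6 to 14.6 TPM with AOAH, 8.43 to 12.4 TPM with PC and 9.30 to 11.96 TPM with vehicle, with ranges that overlapped, and it was not called in any of the 3 comparisons. Its part in the values of Vsir was not tested. Pdzk1 stayed under 1 TPM in each library. Ctla4 overlaps the pseudogene Rpl18-ps1, at 0 to 1.42 TPM, on its own strand.

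The authors' deposited tables, made with DESeq2, gave the same calls for these genes. In the authors' deposited table for AOAH 8 of the 10 were called, and in the authors' deposited table for PC 5 of the 10, each in the direction given above. In the authors' deposited tables the log2 fold change of Cd101 with AOAH was -1.10, larger than on the log2(TPM + 1) scale, and that of Vsir with PC was 0.80.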

How the data were processed

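RNA of 11 libraries was examined in 3 groups. Per the submitters' processing notes, the authors used RSEM and DESeq2 with the build mm39; the sources used here do not name aligner, annotation, versions or strand. Primers carried unique molecular identifiers, per the labels' protocols, and their use in counting is not stated there. The authors deposited log2(TPM + 1) values, which were turned back to TPM; 99.9% fell on steps of 0.01 TPM within 1e-04. TPM keeps no depth, so depth per library is unknown. Each of the authors' deposited tables from DESeq2 gives the mean normalized count as a signal, the log2 fold change, its SE and the adjusted p-value. They were matched through a table of gene IDs and symbols, and all 10 genes matched.

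Tests were made on log2(TPM + 1), a pseudocount of 1, with limma 3.58.1 in R 4.3.3 (mean-variance trend, robust, two-sided), after leaving out genes whose mean over the compared libraries was under 1 TPM. P-values were adjusted by Benjamini-Hochberg over all genes tested, with a call under 0.05. PC was compared with vehicle 1 to 3, because vehicle 4 is not assigned to that comparison in its label. The tests were tested on simulated data.

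The checkpoint genes and the lists of companion genes were chosen with earlier results of these data known. Named were all 10 checkpoint genes and the 4 called genes of lowest p of each companion list and comparison, as far as they add to the text, the 3 genes most alike for the 5 genes called in both vehicle comparisons, and partners of the 10 genes whatever their values. Other list members were named after their values were seen, and a few genes that the rule names are not reported here. Motifs and promoter windows were chosen in the same way, the windows from RefSeq (GRCm38.p6).

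Batch numbers in the labels give the pairing. Deviations from the group means correlated at -0.0033 on average in 10 same-batch pairs (-0.0794 to 0.118) and at 0.0011 in 30 other pairs. As alternatives, the pseudocount was 0.1 or 5, the filter was dropped or raised to 5 TPM; further ones were 1 fit over all 11 libraries, TMM and quantile scaling, batch as a block, vehicle 4 included, each library left out and, chosen after seeing the data, division by the summed CD8 identity markers. The receptor repertoire table was not used.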

Additional observations from a re-analysis of the deposited data

How the results depend on the processing

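Of the 10 genes, the 8 called with AOAH against vehicle kept direction and call under every alternative that tested them. There were 8 called genes under each setting except the filter of 5 TPM, which left out Cd101 and gave 7. With PC, 5 genes were called, and 4 to 6 under the alternatives (4 to 5 with 1 library left out). Between AOAH and PC, 6 were called, and 4 to 9 under the alternatives. With batch as a replicate block the numbers of checkpoint genes called were 8, 5 and 4, and 2300, 1572 and 4246 genes were called over all genes. The block ended the calls of Cd200 and Cd160 between AOAH and PC and changed no other call of the 10.

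Over all genes, 2270 were called with PC, against 1339 with no filter and 1274 to 2083 with 1 library left out (1405 without PC 2, 1387 without PC 3, 1274 without vehicle 1 and 1391 without vehicle 3), fewer libraries or more genes entering each. Dividing by the summed CD8 identity markers shifts all genes, and the median moved to 0.13, -0.20 and 0.30 in the comparisons of AOAH with vehicle, PC with vehicle and AOAH with PC. Genes called higher and lower were then 4260 and 842, against 1514 and 1399 in the first, 275 and 5239, against 962 and 1308 in the second, and 7088 and 797, against 2814 and 2493 in the third, with 5102, 5514 and 7885 called. Under this division Ctla4 was called lower with PC (-0.37), and Pdcd1 (0.33), Lag3 (0.32) and Ctla4 (0.48) were called higher in AOAH than in PC, close to the shift of all genes for the first 2.

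Values that changed sign had not been called before or after. These were Havcr2 with PC under quantile scaling (-0.0065) and the CD8 division (-0.12), Tigit with PC under that division (-0.0652), and between AOAH and PC Pdcd1 under quantile scaling (-0.0439) and the replicate block (-0.0058), Lag3 under quantile scaling (-0.0117), and Havcr2 under the CD8 division (0.0588). With 1 library left out, Ctla4 with AOAH ranged from -0.0277 to 0.0438, Havcr2 with PC from -0.0556 to 0.0401, and between AOAH and PC Pdcd1 from -0.0168 to 0.0179 and Lag3 from -0.0177 to 0.0156. Between AOAH and PC, Cd160 was not called with 1 fit over all 11 libraries (adjusted p = 0.113) or quantile scaling (0.0829). The cause of these changes was not tested. Low levels limit Havcr2 and Cd101, at 1 to 3 TPM.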

Other observations

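Within the vehicle group, libraries 1 and 3 had more of 6 checkpoint genes than libraries 2 and 4. Pdcd1 stood at 58.8 and 60.9 TPM in vehicle 1 and 3 and at 48.9 and 51.1 TPM in vehicle 2 and 4, and Lag3, Tigit, Cd160, Ctla4 and Cd274 had the same order. Cd200 did not, with its lowest value, 73.8 TPM, in vehicle 3. This order was picked after the values were seen, and its share over all genes was not counted. It is not particular to the checkpoint genes, since Hmgb1, Nr4a2 and Egr3 had it too. In AOAH libraries Pdcd1 had an SD of 1.36 TPM over 4 libraries, against 5.82 TPM over 4 vehicle libraries, and Lag3 had 0.579 against 2.43 TPM. Vsir was the reverse, with 2.74 TPM in AOAH libraries, 7.75 TPM in PC libraries and 0.387 TPM in vehicle libraries. These differences in spread were not tested.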
